A study of Mus musculus with 6 samples.

Results

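Of the 18021 transcripts that the authors compared, 728 belonged to protein-coding genes but were annotated as having no defined coding sequence, and these 728 transcripts of 571 genes are described here. The comparison listed 18021 transcripts, while 34258 had a count, so being listed may itself depend on measured values. Among those listed, the 728 were chosen by annotation. The gene had to be protein-coding, and the transcript had to carry the label for an undefined coding sequence or the label processed transcript. All 728 carried the first label, and the 16 processed transcripts in the table belonged to genes of another class. They made up 4.04% of the transcripts compared.

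MLE-12 is an immortalised mouse lung epithelial cell line, wild type per the labels. In the I/R group, cells spent 12 h at 1% oxygen and 4 h back in normal oxygen, a culture model of ischaemia and reperfusion. In the I/R + Dex group, also written as with Dex below, cells first received dexmedetomidine (10 µM, 12 h), a sedative that activates alpha-2 adrenergic receptors, and then the same hypoxia and reoxygenation. Each group had 3 libraries of poly(A)-enriched RNA, which the labels call independent biological replicates of a single batch, and all 6 came from the same line, so both groups share its genotype and the hypoxia. No library without hypoxia was analysed here.

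Total counts ranged from 2333546 to 2941989 per library, and 538 to 591 of the 728 transcripts had a count in a given library. The labelled epithelial identity was checked against 20 lung epithelial markers, of which 13 stood at 0 in all 6 libraries, among them Krt8, Krt18, Nkx2-1 and Sftpc. The summed level of that list was 8.50 to 19.2 CPM (counts scaled to library size) under I/R alone against 3.86 to 18.6 CPM with Dex. Of 13 fibroblast markers 12 were counted, at a summed 1826 to 1880 and 1626 to 1940 CPM. Most of this lay on Sparc (mean 897 under I/R alone and 786 with Dex), Vim (479 and 501) and Fn1 (389 and 417). Col1a1 stood at 24.5 and 24.0 CPM, Dcn at 1.83 and 1.75, Pdgfrb at 0.255 and 0.275 and Lum at 0.255 and 0. Leukocyte markers reached 23.0 to 29.9 and 30.9 to 40.2 CPM, with Cd3e, Cd79a and Marco among those at 0, and endothelial markers 2.30 to 9.20 and 8.26 to 14.1 CPM, with Tek at 0. Whether cells of other types were present, and their part in any result below, was not tested. In bulk RNA a smaller number of cells cannot be told apart from less RNA per cell.

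A mammalian gene is usually transcribed into several RNAs that differ in their exons. Some of them are annotated from partial or unusual cDNA evidence, and no reading frame is assigned to them; an RNA that keeps intron sequence, lacks the start codon or stops early can be held in the nucleus or destroyed by surveillance pathways such as nonsense-mediated decay. Such RNAs are counted together with the messenger RNA of their gene unless reads are assigned to single transcripts, and a method that assigns reads to transcripts depends on the bases and junctions that tell one transcript from another.

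The transcripts were short pieces of their genes. Their median length was 765.5 bases, from 159 to 12956, against 3252 for the coding transcripts, 2565.5 for transcripts annotated as targets of nonsense-mediated decay and 992.5 for those with a retained intron among the transcripts compared. Structure was read by transcript identifier from a reference annotation of an older build (GENCODE vM21), which held 725 of them, 724 at the same length. The median transcript had 3 exons, and 73.4% of its bases lay in exons of coding transcripts of the gene. Their start lay within 100 bases of a coding transcript's start in 256, their end within 100 bases of a coding end in 165, and both in 65.

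Most departed from the coding transcript at a splice site. Of 724 with a coding transcript to compare, 347 had an exon that ran on past a 5′ splice site used by a coding transcript, and in 335 of these the first bases beyond it were GT, the letters with which nearly all introns begin. In 336 an exon began upstream of a 3′ splice site, in 330 of them with AG as the last bases before it. A whole coding intron was kept in 120, and 145 had an exon that touched no coding exon. In 84 none of these 4 departures was present.

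The following stretches show where 8 transcripts named in the results leave their gene's other transcripts. Each is read 5′ to 3′ from the transcript sequence in GENCODE vM21, and capitals mark bases found in no other annotated transcript, up to 100 of them, with 10 shared bases beside them in lower case.
Mrps2: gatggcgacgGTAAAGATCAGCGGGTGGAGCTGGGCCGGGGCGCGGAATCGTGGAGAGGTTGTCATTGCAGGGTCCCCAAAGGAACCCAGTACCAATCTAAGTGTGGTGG
Fnbp4: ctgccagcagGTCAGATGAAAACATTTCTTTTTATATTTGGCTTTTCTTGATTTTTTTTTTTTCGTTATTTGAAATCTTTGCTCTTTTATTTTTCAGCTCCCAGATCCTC
Cap1: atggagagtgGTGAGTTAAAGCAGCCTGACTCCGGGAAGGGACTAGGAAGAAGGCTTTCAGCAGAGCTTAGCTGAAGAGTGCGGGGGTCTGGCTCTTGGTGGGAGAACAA
Canx: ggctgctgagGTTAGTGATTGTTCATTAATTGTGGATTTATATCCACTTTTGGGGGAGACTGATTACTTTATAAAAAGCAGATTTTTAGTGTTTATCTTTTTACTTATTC
Dctn3: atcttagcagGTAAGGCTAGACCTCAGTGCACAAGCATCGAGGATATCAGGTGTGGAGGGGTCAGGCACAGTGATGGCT
Arpc1b: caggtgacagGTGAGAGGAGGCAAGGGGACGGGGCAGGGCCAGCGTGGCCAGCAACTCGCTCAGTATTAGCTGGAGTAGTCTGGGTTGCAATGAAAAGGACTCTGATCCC
Xpo1: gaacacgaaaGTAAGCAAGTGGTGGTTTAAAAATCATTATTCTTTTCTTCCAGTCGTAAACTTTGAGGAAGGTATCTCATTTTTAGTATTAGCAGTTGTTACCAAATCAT
Plin2: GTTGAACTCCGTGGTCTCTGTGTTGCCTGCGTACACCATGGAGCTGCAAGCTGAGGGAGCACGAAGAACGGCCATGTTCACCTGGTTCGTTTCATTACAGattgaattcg

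In Mrps2 and Cap1 the capitals open an intron that the transcript keeps whole. In Canx, Dctn3, Arpc1b and Xpo1 they follow a 5′ splice site past which the last exon runs on or a longer exon continues. In Plin2 they lie upstream of a 3′ splice site, with AG before the shared exon. The Fnbp4 transcript ends in an exon that touches no coding exon, and its capitals are the last 121 bases of 538, of which 100 are shown. The number of unique bases was 461 in Mrps2, 154 in Cap1, 291 in Canx, 69 in Dctn3, 159 in Arpc1b, 991 in Xpo1 and 433 in Plin2.

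Not all had such a stretch. At least 1 base of its own was present in 591 of the 725, with a median of 147 bases or 20.1% of the length, and 259 had a junction of their own. In 62 there was neither, so that no single base or junction sets them apart from the gene's other annotated transcripts. Among these 62 were the transcripts of Tbc1d9b, Edf1 and the leading one of Hnrnph1 described below. Exons of 82 lay over a gene of the other strand, whose reads cannot be told apart where counting ignores strand, and no source used here states the strand setting. Of the 725, 71 had a near-identical copy elsewhere, 61 of them a counted one.

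Most did not hold the annotated start codon of their gene, and only reading frames from that codon are given here. The start codon of the gene's coding sequence was missing from 435 (59.75%), while 245 held it and met a stop inside the transcript, at a median of 102 codons counting from the start codon, and 45 held it and had no stop before the last base. A polyadenylation hexamer, AATAAA or ATTAAA on the transcript's own strand, stood in the last 50 bases of 168 of the 725 (23.17%), against 29.35% of retained-intron, 53.16% of nonsense-mediated decay and 75.22% of coding transcripts. A missing hexamer says only that these letters are not in the annotated last 50 bases.

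They were unevenly spread over the genome. Chromosomes 2, 4 and 11 carried 135, 143 and 174 of them, together 452 or 62.1%, while the same chromosomes carried 22.7% of all transcripts compared. Chromosome 13, by contrast, carried 5. The same shares for retained-intron and nonsense-mediated decay transcripts are not given here, and the cause of the uneven spread was not tested.

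Few of them were abundant. The median summed count over 6 libraries was 54.5, from 6 to 17242, and 387 stood at 0 in at least 1 library. The highest transcript alone held 10.1% of all their counts and the highest 10 held 29.3%, and 24 genes held 50%. Levels per length, in FPKM (fragments scaled to transcript length and library size, as deposited by the authors), had a median of 3.70, and 25 reached 100 FPKM.

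Together they took between 1.05% and 1.22% of all counts in every library. The share was 1.09, 1.22 and 1.05% under I/R alone against 1.07, 1.07 and 1.12% with Dex, a mean of 1.12 ± 0.0889% against 1.09 ± 0.0305% (SD, n = 3 each; exact permutation test, two-sided, p = 0.8, where the smallest p that 3 against 3 allows is 0.1). The groups overlapped. Retained-intron transcripts took 6.50 ± 0.243% and 6.54 ± 0.0981%, and transcripts of nonsense-mediated decay 1.92 ± 0.116% and 1.89 ± 0.141% (SD, n = 3 each). Without the transcripts of Hnrnph1 the share was 0.960 ± 0.0800% and 0.921 ± 0.0253% (SD, n = 3 each; exact permutation p = 0.7).

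Within their genes most were minor. Among 446 transcripts of genes with at least 100 counts in every library, the median share of the gene's counts was 2.42%, against 2.91% for retained-intron, 5.34% for nonsense-mediated decay and 64.0% for coding transcripts. The share averaged over 6 libraries was under 5% in 299 of the 446 and 50% or more in 17. Over the 623 transcripts of genes with at least 10 counts in every library, the median share was 2.54 ± 0.0880% under I/R alone against 2.42 ± 0.0988% with Dex (SD, n = 3 each; exact permutation p = 0.3).

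**Figure D1:**
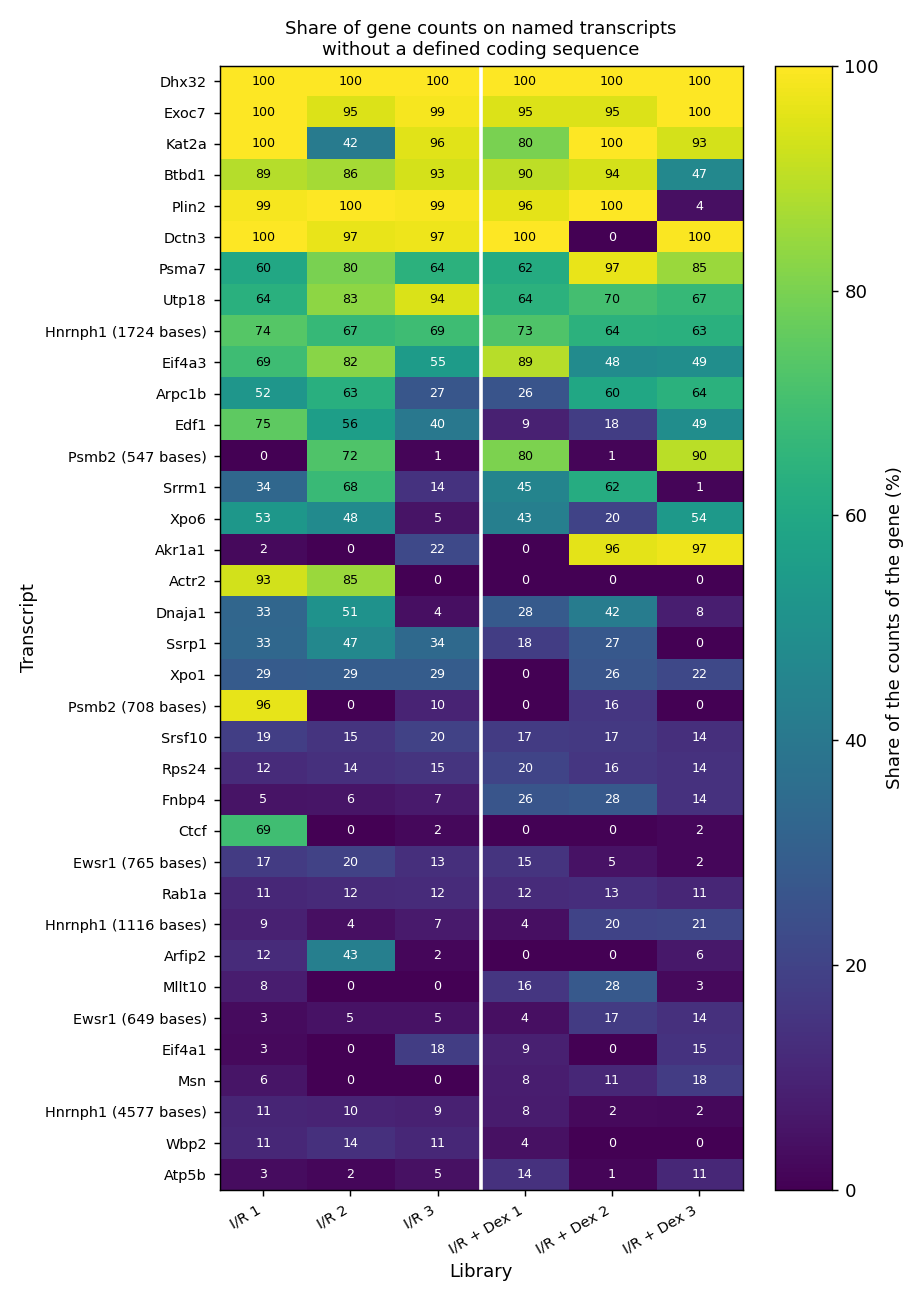
Share of the counts of the gene (colour and number, in percent) on 36 named transcripts without a defined coding sequence, in rows, in each of the 6 libraries, in columns; a white line parts I/R from I/R + Dex, and genes have at least 100 counts in every library. Dhx32 stood at 100 throughout and Rab1a between 11 and 13, while Plin2, Dctn3, Akr1a1, Actr2, Psmb2 and Ctcf went from near 0 to most of the gene from library to library.

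A few genes were counted almost entirely on such transcripts. Of 317 host genes with at least 100 counts in every library, the transcripts without a defined coding sequence together held at least 50% in all 6 libraries in 9 and at least 90% in 4. The 4 were Hnrnph1, Dhx32, Utp18 and Exoc7, and the other 5 were Psma7, Anapc2, Med8, Fnbp4 and Cdin1.

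Hnrnph1, which encodes a nuclear RNA-binding protein that regulates splicing, held the most. Its 11 transcripts of this class took 14.6% of all counts on the class and 97.0% to 99.97% of the counts of the gene. The leading one (chromosome 11, 50269128 to 50276750, GRCm39, 1724 bases in 12 exons) had 2732, 3379 and 2869 counts under I/R alone against 3112, 2490 and 2660 with Dex. That is 63.4% to 73.6% of the gene, with overlapping groups. Its level was 1098 ± 53.2 CPM under I/R alone against 1124 ± 62.6 CPM with Dex (SD, n = 3 each). Its exons are 88.6% shared with coding transcripts, and it has no base and no junction of its own in the reference annotation.

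A pair of other Hnrnph1 transcripts went opposite ways between libraries. The one of 4577 bases had 391, 507 and 386 counts under I/R alone against 331, 93 and 87 with Dex, and the log2 fold change was -1.21 ± 0.55 (SE; adjusted p = 1.00 in edgeR). The one of 1116 bases had 339, 215 and 304 counts under I/R alone against 168, 782 and 869 with Dex. In the libraries I/R + Dex 2 and 3 the first lay below and the second above every library of I/R, and in I/R + Dex 1 both lay below. Neither has a base or a junction of its own. The gene as a whole had a log2 fold change of 0.10 (adjusted p = 1.00 in edgeR).

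Dhx32, a gene of the DEAH-box helicase family on chromosome 7 (133322675 to 133361998), was counted on 1 transcript alone. It had 308, 278 and 215 counts under I/R alone against 233, 285 and 255 with Dex. Its 2998 bases hold the start codon and 751 codons before a stop, and its exons overlap Bccip on the other strand. Exoc7, which encodes a subunit of the exocyst, had 189, 229 and 139 counts under I/R alone against 156, 186 and 178 with Dex on its leading transcript, 94.5% to 100% of the gene. Utp18, a nucleolar factor of small-subunit ribosome assembly, split its counts between a pair of transcripts of the class, the larger with 63.6% to 94.2%. Groups overlapped in all of these.

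Psma7, an alpha subunit of the 20S proteasome, had 662, 929 and 678 counts under I/R alone against 698, 859 and 790 with Dex on a transcript of 292 bases (chromosome 2, 179681089 to 179684178). That is 60.02% to 96.5% of the gene, and in I/R 2 and I/R + Dex 2 its coding transcript stood at 0. Per length this short transcript reached a mean of 1018 FPKM. Arpc1b, a subunit of the actin-nucleating Arp2/3 complex, reached 1071 FPKM on a transcript of 431 bases (chromosome 5, 145051068 to 145059605). Its counts of 1317, 1770 and 641 under I/R alone against 611, 1350 and 1493 with Dex were 26.1% to 64.0% of the gene, with as wide a range within a group as between groups.

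Rab1a, a GTPase of transport from the endoplasmic reticulum to the Golgi, varied little between libraries. Its transcript of 962 bases (chromosome 11, 20151439 to 20169487) had 519, 635 and 615 counts under I/R alone against 612, 583 and 490 with Dex. The share of the gene was 11.8 ± 0.767% and 12.0 ± 1.06% (SD, n = 3 each). It holds 579 bases of its own, more than many in the class.

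Between I/R + Dex and I/R, no transcript of the class passed an adjusted p of 0.05 in edgeR. Low counts left 421 of the 728 untested, and of the 307 tested in edgeR 0 passed, as did 0 of all 9882 transcripts tested (0%). On simulated counts this test recovered 0% of 2-fold and 0% of 4-fold transcript changes. The absence of calls therefore does not show an absence of change. At an unadjusted p under 0.05 there were 6 of the 307, or 1.95% against 2.89% of all transcripts tested. Of the 6, 4 were higher and 2 lower in I/R + Dex, where 1.47% of all were higher and 1.43% lower. DESeq2 called 3 of 545 (0.55%), 2 higher and 1 lower, and 73 of all 14931 it tested (0.489%), with 0.281% higher and 0.208% lower. The 3 were Mrps2, Iqsec1 and Sfpq. The CPM of the groups did not overlap in 29 of the 307, 15 higher and 14 lower, or 9.45% against 9.79% of all, of which 5% were higher and 4.79% lower.

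Fold changes were centred on 0. The median log2 fold change of the 307 was -0.01, with 152 higher and 155 lower, against 0.00 over all transcripts tested. The median absolute log2 fold change was 0.38, against 0.27 over all transcripts and 0.13 for the host genes. The 95% interval reached a median of 1.89 to either side on the log2 scale, against 1.08 over all transcripts and 0.44 for host genes.

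**Figure D2:**
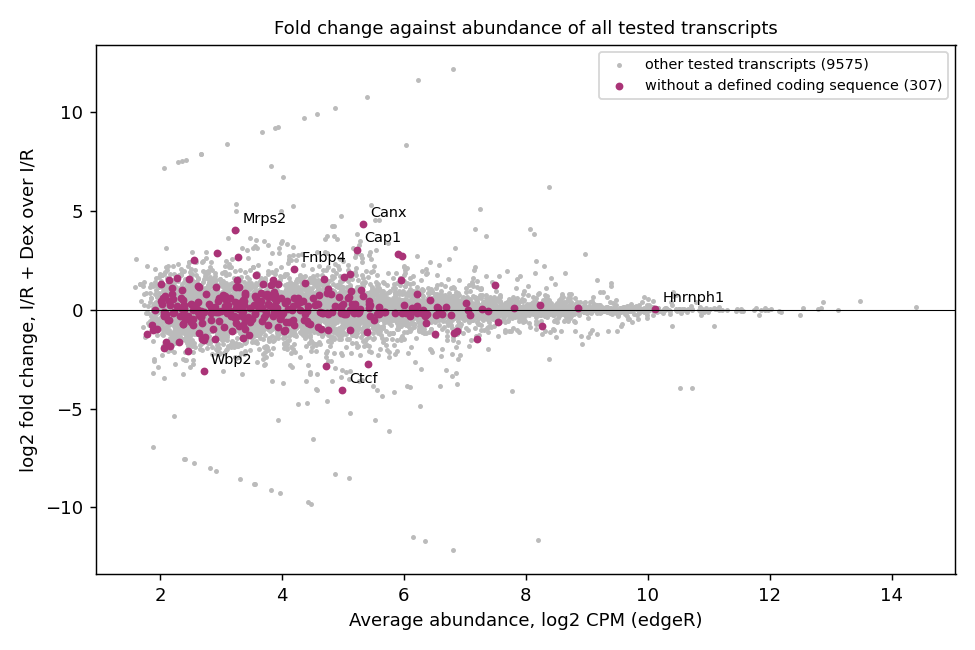
Log2 fold change between the groups, positive where higher in I/R + Dex (vertical), against average abundance in log2 CPM (horizontal) for all 9882 tested transcripts; the 307 without a defined coding sequence are in purple. Mrps2, Canx and Cap1 lie above 3 and Ctcf and Wbp2 below -3, at low to middle abundance, while the leading Hnrnph1 transcript lies at 0.03.

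Mrps2, which encodes a protein of the small subunit of the mitochondrial ribosome, had the smallest adjusted p of the class. Its only counted transcript (chromosome 2, 28358102 to 28361177, 2504 bases), the one whose kept intron is printed above, had 2, 3 and 3 counts under I/R alone against 49, 30 and 42 with Dex. All 3 libraries given dexmedetomidine lay above all 3 of I/R. The level went from 0.978 ± 0.195 to 16.4 ± 3.01 CPM (SD, n = 3 each), and the log2 fold change was 4.00 ± 0.38 (SE; adjusted p = 0.0997 in edgeR over all transcripts). Only the I/R + Dex libraries brought Mrps2 past the filter on low counts, here and in the gene test below. Without that filter the adjusted p of the transcript was 0.301 in edgeR.

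Since the gene has no other counted transcript, the test over genes used the same counts. There Mrps2 was called, with an adjusted p of 0.0412 in edgeR, 1 of 518 host genes tested (0.193%) beside 5 of all 7412 genes (0.0675%). At an unadjusted p under 0.05 there were 21 of the 518 host genes, and 3.37% of all genes. It was the only host gene called, and it was not called when any 1 library was left out, with the replicate number as a block, or in limma voom. The authors' deposited table lists this transcript with an adjusted p of 8.83e-08, and DESeq2 here gave 0.000344. The remaining 17 tested mitochondrial ribosomal protein genes were not called, and the median log2 fold change of all 18 was -0.25 against -0.01 over all genes.

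Fnbp4, which encodes a formin-binding protein, had a transcript that took a larger part of the gene in cells given dexmedetomidine. The transcript (chromosome 2, 90593815 to 90598420, 538 bases) had 14, 21 and 21 counts under I/R alone against 81, 79 and 48 with Dex. These were 5.32, 5.53 and 7.24% of the gene under I/R alone against 26.3, 27.8 and 14.3% with Dex, and the groups did not overlap. The log2 fold change was 2.04 ± 0.34 (SE; adjusted p = 0.344 in edgeR), and the authors' deposited table gives an adjusted p of 0.000312.

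The gene's total did not follow, with 263, 380 and 290 counts under I/R alone against 308, 284 and 336 with Dex (log2 fold change 0.16, adjusted p = 1.00 in edgeR). A second transcript of the class, which shares the same intronic region, held 104, 179 and 150 counts under I/R alone against 107, 108 and 145 with Dex. A coding transcript had 131, 175 and 119 counts under I/R alone against 0, 94 and 138 with Dex. In the reference annotation of the older build, the 538-base transcript has 121 bases of its own. Whether its reads can be told from the others in the annotation used for counting was not tested. In the test of the transcript's use within its gene, the unadjusted p was 0.0611 (adjusted p = 1.00 in edgeR).

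Iqsec1, an exchange factor for ARF GTPases, had 0, 0 and 0 counts under I/R alone against 7, 63 and 18 with Dex on a transcript of 568 bases (chromosome 6, 90667644 to 90713669). All 3 libraries of I/R + Dex had a count and no library of I/R did, with the most in I/R + Dex 2. Sfpq, a splicing and paraspeckle protein, had 9, 25 and 97 counts under I/R alone against 1, 1 and 1 with Dex on a transcript of 925 bases (chromosome 4, 126917320 to 126930806). Both were too low for the edgeR filter. In the authors' deposited table they have adjusted p values of 0.0121 and 0.0167, and with Mrps2 and Fnbp4 they are the 4 of 728 (0.549%) that it marks, against 104 of 18021 (0.577%). It marks 3 of them as higher and 1 as lower, where 0.255% of all were marked higher and 0.322% lower.

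**Figure D3:**
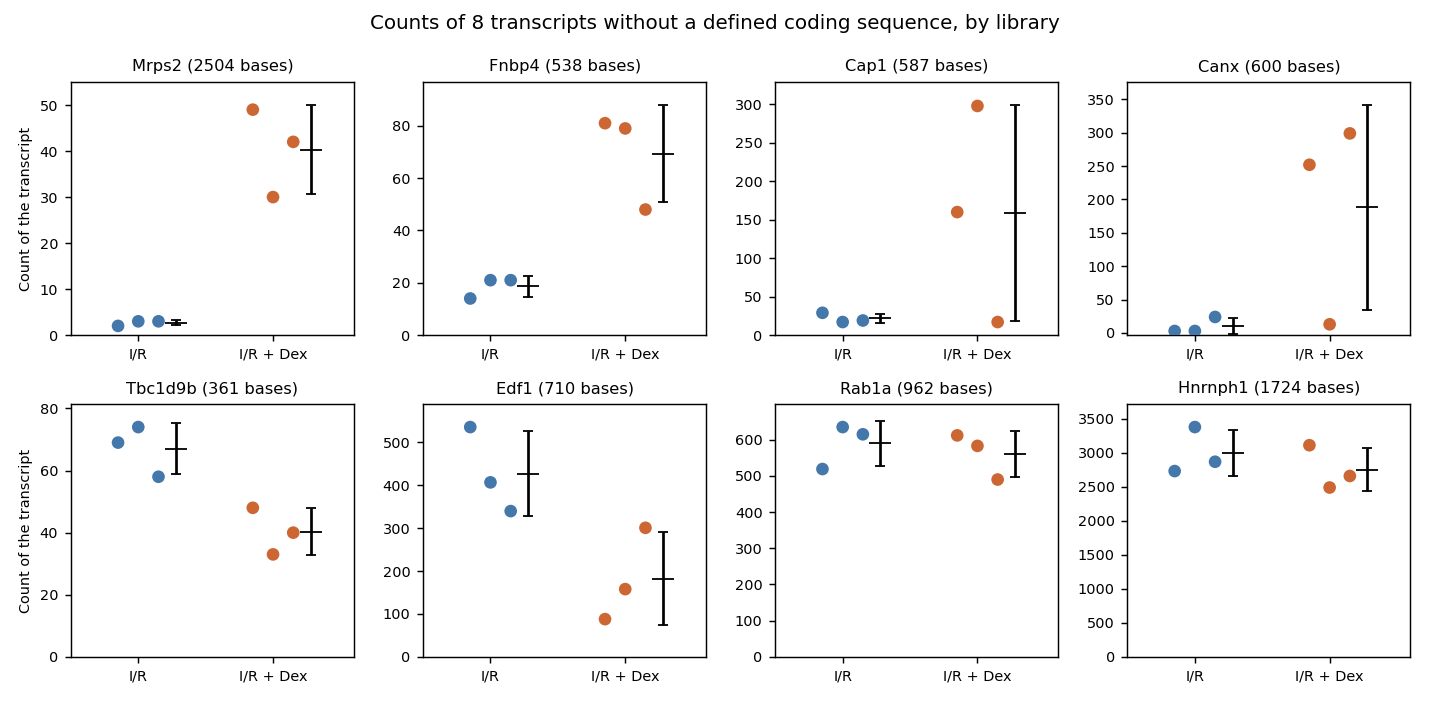
Counts of 8 transcripts without a defined coding sequence in I/R (blue) and I/R + Dex (orange), 1 point per library, with the mean and SD of 3 libraries beside them as a black bar. Groups lie apart in Mrps2, Fnbp4, Tbc1d9b and Edf1; Cap1 has 1 treated library at the level of I/R and Canx 1 treated library below an I/R library; Rab1a and Hnrnph1 overlap.

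Cap1 and Canx had larger fold changes that rested on 2 of the 3 treated libraries. Cap1, which encodes a cyclase-associated protein that turns over actin filaments, had 29, 17 and 19 counts under I/R alone against 160, 298 and 17 with Dex on a transcript of 587 bases (chromosome 4, 122756209 to 122758425). The log2 fold change was 3.03 ± 1.05 (SE; adjusted p = 1.00 in edgeR). Library I/R + Dex 3 stood at the level of I/R. Cap1 had the lowest p of the class in the test of use, 0.603 after adjustment in edgeR, and its main coding transcript took 90.1% to 94.4% of the gene under I/R alone against 78.5% to 91.0% with Dex.

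Canx, which encodes calnexin, a chaperone of the endoplasmic reticulum, had 3, 3 and 24 counts under I/R alone against 252, 13 and 299 with Dex on a transcript of 600 bases (chromosome 11, 50189665 to 50191817). The groups overlapped, because I/R + Dex 2 was low. The log2 fold change was 4.30 with a 95% interval from 0.49 to 8.12 (adjusted p = 1.00 in edgeR). In that same library the main coding transcript, with 1927 to 2855 counts in the other 5, stood at 0, and a second coding transcript held 2085 counts after 0 to 3 elsewhere. The gene's total ranged only from 2099 to 2866.

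Ewsr1, an RNA-binding protein gene, carried a pair with opposite values. Its transcript of 649 bases had 49, 123 and 92 counts under I/R alone against 78, 287 and 287 with Dex, and the log2 fold change was 1.51 ± 0.63 (SE; adjusted p = 1.00 in edgeR). Its transcript of 765 bases had 301, 504 and 250 counts under I/R alone against 284, 83 and 39 with Dex, and the log2 fold change was -1.25 ± 0.74 (SE; adjusted p = 1.00 in edgeR). Both departed from I/R in the libraries I/R + Dex 2 and 3, and the groups overlapped. The copy Gm6627 is near-identical to part of both.

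Acin1, a nuclear protein of the exon junction complex's accessory factors, had 30, 21 and 24 counts under I/R alone against 55, 32 and 29 with Dex (log2 fold change 0.75, adjusted p = 1.00 in edgeR). The lowest treated library stood 1 count below the highest untreated one, while in CPM the groups did not overlap.

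Among transcripts with fewer counts after dexmedetomidine, Tbc1d9b had groups that did not overlap. Tbc1d9b, whose product carries a domain of Rab GTPase-activating proteins, had 69, 74 and 58 counts under I/R alone against 48, 33 and 40 with Dex on a transcript of 361 bases (chromosome 11, 50038959 to 50040792). Its share of the gene was 58.9 ± 3.96% and 44.5 ± 3.60% (SD, n = 3 each), without overlap. The log2 fold change was -0.58 ± 0.23 (SE; adjusted p = 1.00 in edgeR). It has neither a base nor a junction of its own.

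Rpl24, a protein of the large ribosomal subunit, had 28, 23 and 19 counts under I/R alone against 10, 4 and 8 with Dex on a transcript of 639 bases (chromosome 16, 55786784 to 55791798), under 1.2% of the gene. The groups did not overlap (log2 fold change -1.52 ± 0.46, SE; adjusted p = 1.00 in edgeR). Its sequence has 4 counted near-identical copies, Gm12254, Gm28037, Gm7380 and Gm9385, so the counts are uncertain. A retained-intron transcript of the same gene had 400, 632 and 418 counts under I/R alone against 1693, 1657 and 1231 with Dex (adjusted p = 0.117 in edgeR).

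Edf1, a coactivator that also binds stalled ribosomes, had 536, 407 and 340 counts under I/R alone against 88, 158 and 301 with Dex on a transcript of 710 bases (chromosome 2, 25450597 to 25452094). The groups did not overlap, though I/R 3 and I/R + Dex 3 were close. The share of the gene was 57.1 ± 17.7% and 25.6 ± 20.9% (SD, n = 3 each), and the log2 fold change -1.07 ± 0.51 (SE; adjusted p = 1.00 in edgeR). Its coding transcript had 2, 231 and 381 counts under I/R alone against 725, 500 and 253 with Dex, with overlapping groups, and the gene's total had a log2 fold change of 0.23.

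Wbp2, a WW-domain-binding coactivator, had 22, 41 and 23 counts under I/R alone against 9, 0 and 0 with Dex (log2 fold change -3.09 ± 1.44, SE; adjusted p = 1.00 in edgeR). Without I/R + Dex replicate 1, where the only treated counts lie, the log2 fold change was -7.75. Only the I/R libraries brought this transcript past the filter on low counts. Setd5, a SET-domain chromatin gene, had 13, 37 and 42 counts under I/R alone against 16, 12 and 11 with Dex, with overlapping groups. A retained-intron transcript of Setd5 had 73, 127 and 70 under I/R alone against 257, 189 and 149 with Dex.

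The test of use within the gene could be run for 261 of the 307, and 0 of them passed an adjusted p of 0.05, against 36 of all 4473 tested (0.805%, with 0.425% higher and 0.38% lower). At an unadjusted p under 0.05 there were 4 of the 261, 1.53% against 2.5% of all, with 2 higher and 2 lower where 1.36% and 1.14% of all were. They were Cap1, Msn, Arfip2 and Ctcf. On simulated counts with 2-fold and 4-fold changes of transcript abundance, the use test recovered 0% of each. The median absolute log2 difference of use estimated for these was 0.416 and 0.794. Changes of use itself were not planted. A missing call therefore does not show an unchanged use.

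Msn, which encodes moesin, a linker of the membrane to actin, had 122, 1 and 5 counts under I/R alone against 173, 213 and 397 with Dex on a transcript of 1883 bases. All treated libraries lay above all untreated ones. Without I/R replicate 1 the use test passed, with a log2 difference of 6.73 (adjusted p = 0.00243 in edgeR), and in other leave-one-out fits it did not. Mllt10, a chromatin reader, had 19, 0 and 0 counts under I/R alone against 43, 63 and 6 with Dex, and it too passed only without I/R replicate 1 (adjusted p = 0.0437 in edgeR).

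Arfip2, an effector of ARF GTPases, had 73, 303 and 12 counts under I/R alone against 2, 0 and 43 with Dex on a transcript of 1354 bases, so that I/R 3 fell below I/R + Dex 3. Ctcf, the zinc finger protein of chromatin loops, had 431 counts in I/R 1, 3 and 24 in the other I/R libraries and 3, 4 and 18 in I/R + Dex. Without I/R replicate 1 its log2 fold change between groups was -0.56 rather than -4.07. Cfl2, a muscle-type cofilin, had 93 counts in I/R 2 against 8 to 20 elsewhere, and without that library its log2 fold change was 0.06 rather than -1.42.

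The counts of several genes moved from one transcript to another between libraries of the same group. Among the 446 transcripts in genes with at least 100 counts in every library, the share spanned 50 percentage points or more within a group in 15, or 3.36% against 12.4% of 6867 transcripts of all classes. Of the 446, 299 had a mean share under 5%, which leaves little room for such a span. At a mean share of 5% to 50%, the median range within a group was 16.5 points. It was 18.8 for retained-intron, 18.7 for nonsense-mediated decay and 30.2 for coding transcripts. Of all 728, 35 had 0 in a library and 100 or more in another, and for 29 of these the other library was of the same group. The same count over transcripts of all classes is not given here.

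Plin2, the coat protein of lipid droplets, was counted almost entirely on its transcript of 817 bases (chromosome 4, 86575393 to 86577385) in 5 libraries. The counts were 548, 681 and 618 under I/R alone against 450, 592 and 17 with Dex, or 95.9% to 100% of the gene except for 4.16% in I/R + Dex 3. In I/R + Dex 3 the coding transcript held 389 counts, after 0 to 17 elsewhere. Dctn3, a subunit of dynactin, had 320, 543 and 230 counts under I/R alone against 494, 0 and 502 with Dex on its transcript of 344 bases. In I/R + Dex 2 all 282 counts of the gene lay on a coding transcript that held 0 to 19 elsewhere.

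Psmb2, a beta subunit of the proteasome, alternated between a pair of the class. The one of 547 bases had 1, 465 and 6 counts under I/R alone against 362, 6 and 337 with Dex, while the one of 708 bases had 524, 0 and 48 under I/R alone against 0, 76 and 0 with Dex. No library had a high count on both. Akr1a1, an aldehyde reductase, had 10, 0 and 104 counts under I/R alone against 0, 368 and 368 with Dex, and its coding transcript had 391, 466 and 364 under I/R alone against 458, 0 and 0 with Dex. Actr2, the ARP2 subunit of the Arp2/3 complex, had 497, 237 and 0 under I/R alone against 0, 0 and 0 with Dex, and its coding transcript 34, 31 and 466 under I/R alone against 159, 166 and 202 with Dex.

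**Figure D4:**
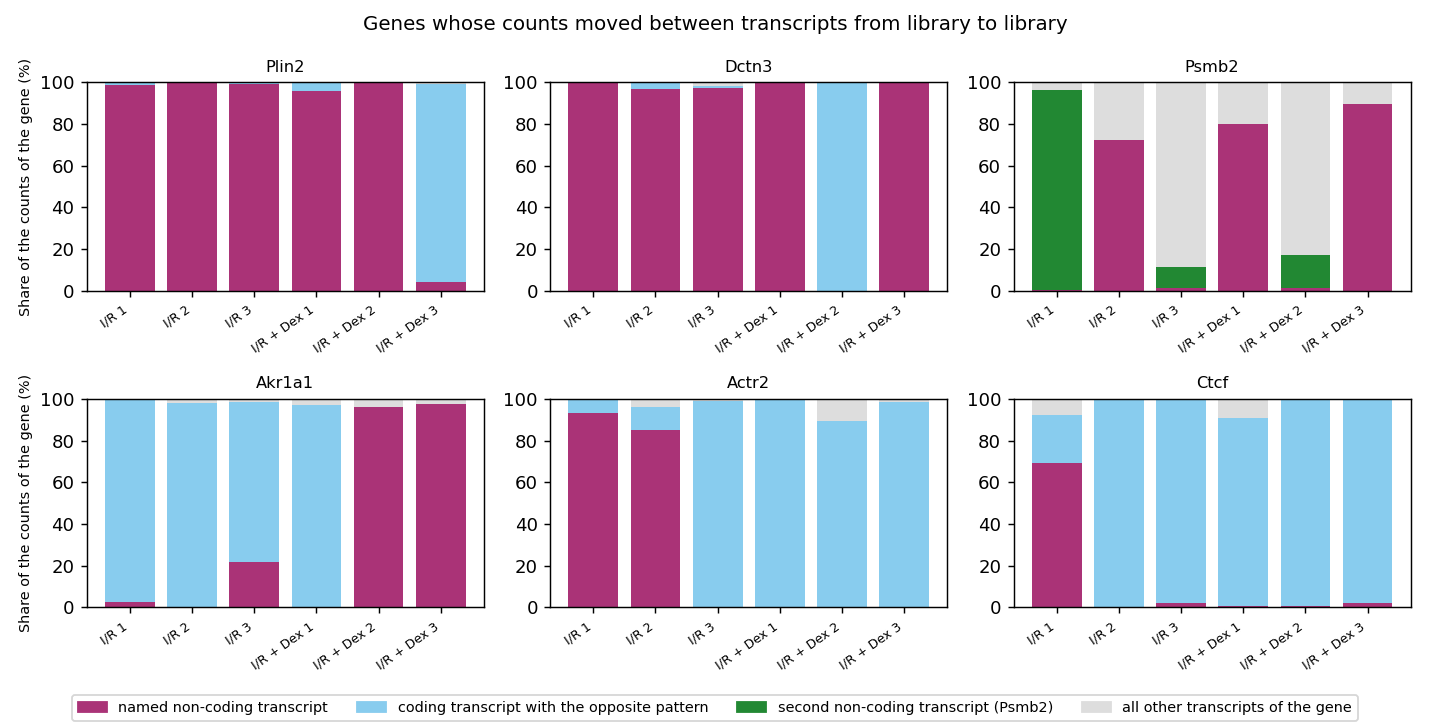
Share of the counts of the gene (percent, stacked to 100) on the named non-coding transcript (purple), on the transcript with the opposite pattern (blue where coding, green for the second non-coding transcript of Psmb2) and on all others (grey) in each library of 6 genes. In each gene the purple part goes from near 0 to over 69% between libraries, in Plin2 and Dctn3 in a single treated library.

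Xpo1, the main nuclear export receptor, had 992, 1201 and 1028 counts under I/R alone against 7, 866 and 692 with Dex on a transcript of 2902 bases (chromosome 11, 23206058 to 23232726). The coding transcript held 2402 to 2952 counts in the other 5 libraries and 3327 in I/R + Dex 1, the one with 7. Xpo6, an exporter of actin, had 587, 623 and 52 counts under I/R alone against 444, 169 and 557 with Dex, and in I/R 3 a transcript that was at 0 elsewhere held 952. Ssrp1, a subunit of the histone chaperone FACT, had 487, 797 and 494 counts under I/R alone against 246, 307 and 0 with Dex.

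The spread between libraries of a group was wide at every level. The median coefficient of variation within a group was 56.8% from 10 to 30 CPM, 35.8% from 30 to 100 CPM and 42.6% from 100 CPM, over 114, 66 and 17 transcripts. Coding transcripts had 35.2%, 21.7% and 12.0% in the same ranges, and gene totals 24.7%, 15.4% and 8.59%. Retained-intron transcripts had 56.1%, 47.8% and 34.6%, and transcripts of nonsense-mediated decay 55.3%, 48.3% and 43.5%.

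**Figure D5:**
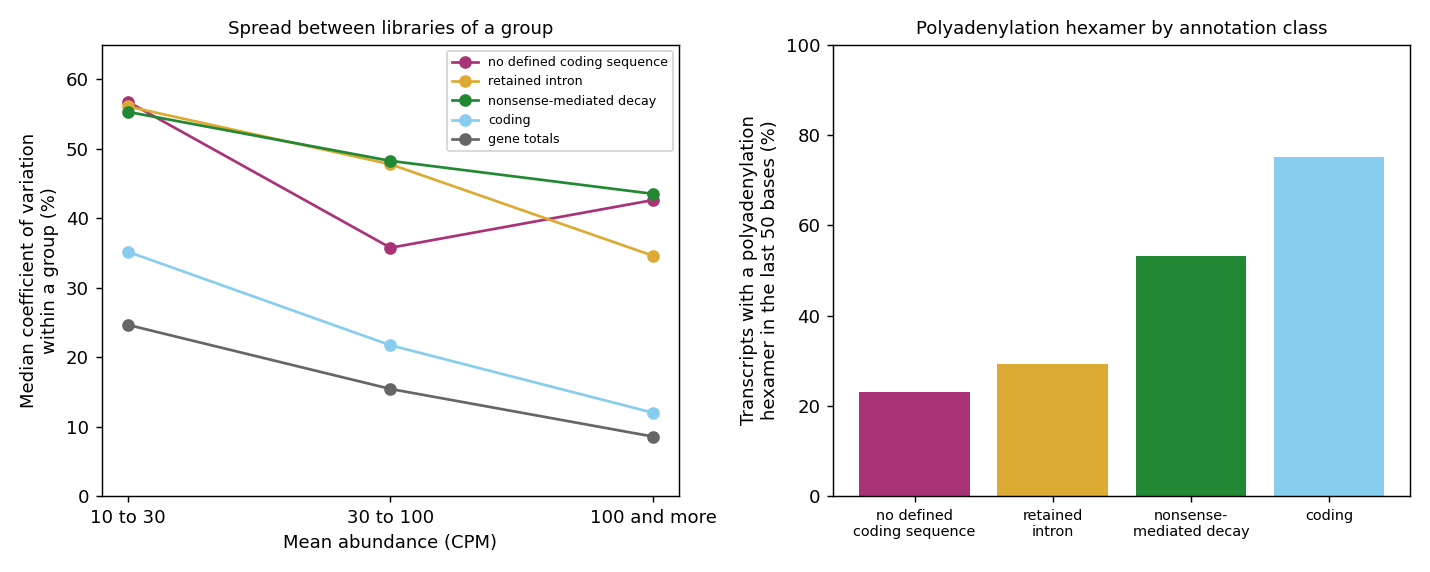
Left, median coefficient of variation between the libraries of a group (percent) for transcripts of 4 annotation classes and for gene totals in 3 ranges of mean CPM; right, percent of transcripts with a polyadenylation hexamer in their last 50 bases. Transcripts without a defined coding sequence vary more than coding ones in all 3 ranges and have the lowest share with a hexamer, 23.17% against 75.22%.

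No gene of the pathways that handle RNAs of this kind was called by edgeR. Of the nonsense-mediated decay and exon junction genes, which recognise messages with an early stop, 17 were tested, 0 were called, and the median log2 fold change was -0.06 against -0.01 over all 7412 genes. The nuclear exosome and its adaptors, which degrade RNA kept in the nucleus, gave 16, 0 and 0.14. The export genes gave 22, 0 and 0.03, the cleavage and polyadenylation genes 22, 0 and -0.05, and the core spliceosome and splicing regulators 55, 0 and -0.04. At an unadjusted p under 0.05 these 5 lists had 0, 0, 1, 2 and 1 genes, where 3.37% of all genes had one.

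Genes of these lists also carried transcripts of the class, most of them in the spliceosome list with 21 in 14 genes. Eif4a3, the helicase of the exon junction complex, had 266, 233 and 217 counts under I/R alone against 258, 148 and 162 with Dex, 48.4% to 89.3% of the gene, on a transcript with the counted copies Eif4a3l1, Eif4a3l2 and Gm5576. Srsf10, a splicing factor, had 174, 168 and 190 counts under I/R alone against 174, 140 and 113 with Dex, 13.6% to 19.8% of the gene. Srrm1, a nuclear matrix splicing coactivator, had 187, 430 and 81 under I/R alone against 272, 262 and 6 with Dex, and groups overlapped in these 3 genes.

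Members on the other lists varied between libraries too. Rps24, a protein of the small ribosomal subunit, had 398, 558 and 434 counts under I/R alone against 419, 363 and 416 with Dex. Atp5g3, a subunit of the ATP synthase ring, had 149, 156 and 123 counts under I/R alone against 6, 121 and 135 with Dex, while its coding transcript stood at 0 in I/R 2 and at 2619 in I/R + Dex 1. Dnaja1, an HSP70 co-chaperone, had 310, 472 and 47 under I/R alone against 259, 329 and 68 with Dex, with 3 counted copies. Mrpl20, of the large mitochondrial ribosomal subunit, had 35, 28 and 106 under I/R alone against 0, 27 and 44 with Dex. Of the 88 transcripts of the class on any list, 37 were tested and 0 passed an adjusted p of 0.05 in edgeR, against 0% of all transcripts tested. Of the 37, 2 had an unadjusted p under 0.05, Mrps2 and Rpl24, where 2.89% of all did.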

How the data were processed

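Poly(A)-enriched RNA of MLE-12 cells was sequenced as paired reads in 6 libraries; group and replicate number came from the labels. The authors deposited counts per transcript and per gene, whole and not normalised, judging by the values. The authors also deposited transcript FPKM and a comparison table with, per the file headers, log2 fold changes, p-values, mean FPKM and annotation. HISAT2 2.1.0, StringTie 2.2.4, DESeq2 1.30 and the build GRCm39 are named, per the submitters' processing notes, with no role; for the annotation release and multiply matching reads, nothing is given in the sources used here.

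Counts were tested with edgeR 4.0.16 (R 4.3.3; robust quasi-likelihood, filterByExpr, TMM, Benjamini-Hochberg over all tested features, threshold 0.05), and use of a transcript within its gene with diffSpliceDGE. Standard errors come from the F statistic. DESeq2 1.42.0, limma 3.58.1, other normalisations and filters, a replicate block and leaving out each library were alternatives. Changes of 2-fold and 4-fold were planted in abundance in simulated counts. In transcripts edgeR recovered 0% of each, both in the abundance test and in the use test. Of gene changes it recovered 32.6% and 85.6%. Single values were compared with exact permutation tests. Transcript counts summed to the gene count in 568 of 571 host genes. Total counts ranged from 2333546 to 2941989, so a count of 0 allows 1.02 to 1.29 CPM (3 counts); this covers counting error only. Structure and sequence came from GENCODE vM21, of another build, matched by identifier; printed coordinates are the authors'. Copies were found with blastn 2.17.0 (90% identity, 200 bases, 50% coverage).

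Members, lists and the naming rule were chosen with earlier results of these data known. The rule took, among members, those past a threshold, the 6 per direction with the lowest p in each test at 5 CPM or more, the 10 highest in CPM, the 8 highest in share, those the authors' table marks, Mrps2, 2 per list, and the 6 with the widest within-group range, each with the opposite-moving transcript of its gene. Anapc2, Med8 and Cdin1 were named after their values were seen.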

Additional observations from a re-analysis of the deposited data

How the results depend on the processing

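No transcript without a defined coding sequence passed in edgeR under any normalisation, filter, threshold or left-out library in the abundance test, while DESeq2 called 3. With its main settings that edgeR test recovered 0% of simulated 2-fold and 0% of 4-fold changes. The absence of calls therefore does not show an absence of change. Over all transcripts the abundance count was 12 without a filter and 73 in DESeq2, with 0 to 3 when a library was left out. In the use test all transcripts gave 13 without a filter, 12 in limma diffSplice and 3 with the replicate block. With a library left out they gave 40 to 66. The class gave 1 with a filter of 1 CPM (Iqsec1) and 0 to 6 with a library left out. Only the I/R + Dex libraries brought Iqsec1 past that filter, so this call cannot count as support for a difference. Among genes, 17 were called by DESeq2, 0 by limma voom, 0 with the replicate block and 0 to 4 with a library left out, and among host genes 2, 0, 0 and 0. Mrps2 passed in DESeq2 as a transcript, with a log2 fold change of 4.04 (adjusted p = 0.000344), and its edgeR log2 fold change stayed between 3.86 and 4.14 with a library left out. The Cfl2 log2 fold change ranged from -1.91 to 0.0597, the last without I/R replicate 2. The difference in the share of library counts ranged from -0.0631 to 0.0218 points, the last without I/R replicate 2, and in the median share of gene counts from -0.171 to -0.0705 points; with a gene minimum of 100 counts it was 0.0395. The cause was not tested. Libraries of equal number did not deviate together (correlations -0.0366, 0.0237 and -0.0266 for transcripts). With 3 libraries per group this cannot show that they share nothing beyond the number. With the replicate block the difference in the share of library counts is by construction the same, -0.0283 points (exact permutation p = 0.75). The label processed transcript alone gave no value, since no member carried it. Low counts left 421 of the 728 untested. From 100 CPM the spread within a group was still 42.6%, over 17 transcripts. It was 43.5% for transcripts of nonsense-mediated decay, 34.6% for retained-intron and 12.0% for coding transcripts.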
